A study of Danio rerio with 2 samples.

Results

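The genes described here are 6 transcription factors of the Nodal-to-endoderm cascade: *mixl1* (ENSDARG00000069252), *sebox* (ENSDARG00000042526), *gata5* (ENSDARG00000017821), *gata6* (ENSDARG00000103589), *sox32* (ENSDARG00000100591) and *sox17* (ENSDARG00000101717). They were found by their symbols in the deposited gene list, where each symbol belonged to 1 identifier, and are 6 of 27597 genes. They were measured by single-cell RNA sequencing in 1 library of wild-type zebrafish embryos and 1 library of *MZwnt11f2/slb* embryos, labelled MZwnt11/slb, both whole embryos at the shield stage, when gastrulation has begun. The wild-type strain was A2B2. Embryos of the other library lacked both maternal and zygotic function of *wnt11f2* (*silberblick*), a non-canonical Wnt ligand. The sources used here do not give the number of embryos pooled in each.

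In the zebrafish embryo, Nodal ligands from the margin and the yolk switch on a short cascade of transcription factors in the cells that will form endoderm. *mixl1* (also known as *bonnie and clyde*) and *sebox* (*mezzo*) encode paired-type homeodomain proteins and are early Nodal targets shared by mesoderm and endoderm progenitors. *gata5* (*faust*) and *gata6* encode zinc-finger factors that act beside *mixl1*. *sox32* (*casanova*) encodes an HMG-box factor that is needed for any endoderm to form, and with the maternal factor *pou5f3* it activates *sox17*, the classical marker of committed endoderm. In RefSeq's GRCz12tu assembly, *sox17* and *sox32* lie on the same chromosome with 1 other annotated gene between their starts; no other pair of these genes shares a chromosome. Coordinates are not printed because the deposited counts were made on another assembly.

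Depth was 37370253 unique molecular identifiers (UMIs) over 8862 cells in wild type, at a median of 3873.5 per cell. It was 40025626 UMIs over 7911 cells, at a median of 4595, in the mutant. A UMI stands for 1 captured mRNA molecule, and levels are given in CPM, the UMIs of a gene per 1000000 UMIs of all genes in the same cells. Each molecule is counted once near its 3′ end, so CPM was not divided by transcript length. The libraries shared 16 cell barcodes. The level of *wnt11f2* itself was 99.3 CPM in the wild-type and 41.4 CPM in the mutant library (log2 ratio −1.26, −1.34 to −1.18), and a mutant transcript would still be counted at its 3′ end. With 1 library per genotype no test was possible, and embryos, clutches and libraries cannot be told apart from genotype. All intervals are 95% intervals, exact Poisson for counts and ratios and exact binomial (Clopper-Pearson) for shares of cells, and they cover counting error only.

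Cells of both libraries were clustered together without the 6 genes, and clusters were named from marker lists. Of 25 clusters, 20 were named, and the classes used below are paraxial mesoderm-like (led by *msgn1*, *mespaa* and *foxc1a*), prechordal plate-like, notochord-like and ventrolateral margin-like cells, which together are called meso-endoderm-like. The others are yolk syncytial layer-like, primordial germ cell-like, enveloping layer-like, ectoderm-like and stress-like cells. No cluster was named endoderm-like in any of 18 clusterings. Endoderm markers were present, and 4 of them were enriched in each of the main paraxial mesoderm-like, the notochord-like and the prechordal plate-like clusters (*foxa2*, *foxa3* and *prdx5* in all of these). These clusters were named for the class with more markers, or, in the notochord-like cluster where both had 4, with more of them among the top 10 genes. *foxa3* had 1910 UMIs in the wild-type library and 4532 in *MZwnt11f2/slb*, while *foxa1* had 9 and 1. Several ectoderm clusters, and the main enveloping layer clusters (696 wild-type cells in the first and 588 *MZwnt11f2/slb* cells in the second, with no cell of the other library), were split by library. Clusters 20 and 21, a part of the enveloping layer-like and of the paraxial mesoderm-like class, had median UMI counts of 8194.5 and 8872.5, and doublets were not removed.

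All 6 genes were detected in both libraries, *mixl1* in the most cells and *sox17* in the fewest. *mixl1* had 3057 UMIs in 1363 of 8862 wild-type cells (15.4%) and 5183 UMIs in 1644 of 7911 *MZwnt11f2/slb* cells (20.8%), or 81.8 and 129 CPM. *sebox* had 1449 and 2518 UMIs (38.8 and 62.9 CPM) in 969 and 1278 cells. These are the early homeobox members. All 6 genes had more positive cells and more UMIs per positive cell in the *MZwnt11f2/slb* library, whose cells were also deeper. *gata5* had 1678 and 1998 UMIs (44.9 and 49.9 CPM) in 875 and 957 cells. *gata6* had 1680 and 2350 UMIs (45.0 and 58.7 CPM) in 749 and 946 cells. *sox32* had 2954 and 4135 UMIs (79.0 and 103 CPM) in 568 and 642 cells, 6.41% and 8.12% of the libraries, and so a level near that of *mixl1* from fewer cells. *sox17* had 200 and 374 UMIs (5.35 and 9.34 CPM) in 100 and 172 cells, 1.13% and 2.17% of the libraries.

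The order of levels in wild type was *mixl1*, *sox32*, *gata6*, *gata5*, *sebox*, *sox17*. Neighbours that did not differ beyond counting error were *mixl1* and *sox32* (log2 ratio 0.05, −0.02 to 0.12) and *gata6* and *gata5* (0.00, −0.10 to 0.10). In *MZwnt11f2/slb* the order was *mixl1*, *sox32*, *sebox*, *gata6*, *gata5*, *sox17*, and each step was larger than counting error. Over all cells *sebox* thus stood above both GATA genes in that library and below them in wild type. Of the wild-type *gata6* UMIs, 530 of 1680 came from yolk syncytial layer-like cells. In the wild-type meso-endoderm-like cells alone, *sebox* (1179 UMIs) stood above *gata6* (1055) and below *gata5* (1486).

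The genes differed in how their UMIs were spread over cells. *sox32* was concentrated: at least 8 UMIs were found in 150 of its 568 positive cells (26.4%) in wild type, and in 228 of 642 (35.5%) in *MZwnt11f2/slb*, and 86.3% and 90.6% of its UMIs came from cells with at least 4. A single wild-type cell held up to 47 UMIs, and a single mutant cell up to 35. *sebox* was the opposite, with a single UMI in 68.9% and 54.0% of its positive cells and a maximum of 8 and 14. *mixl1* lay between them, with at least 8 UMIs in 21 wild-type and 114 *MZwnt11f2/slb* cells. *sox17* reached at least 8 UMIs in only 3 and 4 cells.

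Across cell classes the cascade was not expressed as a block. Paraxial mesoderm-like cells held all 6 genes and most of the UMIs of 5 of them: 61.2% and 55.5% of *mixl1*, 78.4% and 74.5% of *gata5*, 56.0% and 67.8% of *gata6*, 69.4% and 73.1% of *sox32*, and 52.0% and 57.2% of *sox17*, in wild type and *MZwnt11f2/slb*. *sebox* was the exception. Its largest share lay in ventrolateral margin-like cells, the *eve1*- and *cdx4*-expressing cells of the ventral and lateral germ ring, with 40.5% and 37.1% of its UMIs, against 33.1% and 32.8% in paraxial mesoderm-like cells. In the paraxial class *sox32* had 532 and 548 CPM, *mixl1* 486 and 522 CPM, *gata5* 341 and 270 CPM, *gata6* 244 and 289 CPM, *sebox* 124 and 150 CPM, and *sox17* 27.0 and 38.8 CPM. The class name covers whole clusters, and their cells were not uniform. Those with 8 or more *sox32* UMIs had 985 and 1010 CPM of *cxcr4a* and 1150 and 1154 CPM of *msgn1*. Those without *sox32* had 59.9 and 131 CPM of *cxcr4a* and 2346 and 2190 CPM of *msgn1*, while *foxa3* was not higher at high *sox32*. Whether the *sox32*-rich cells are endoderm progenitors that carry the name of their cluster was not tested.

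**Figure D1:**
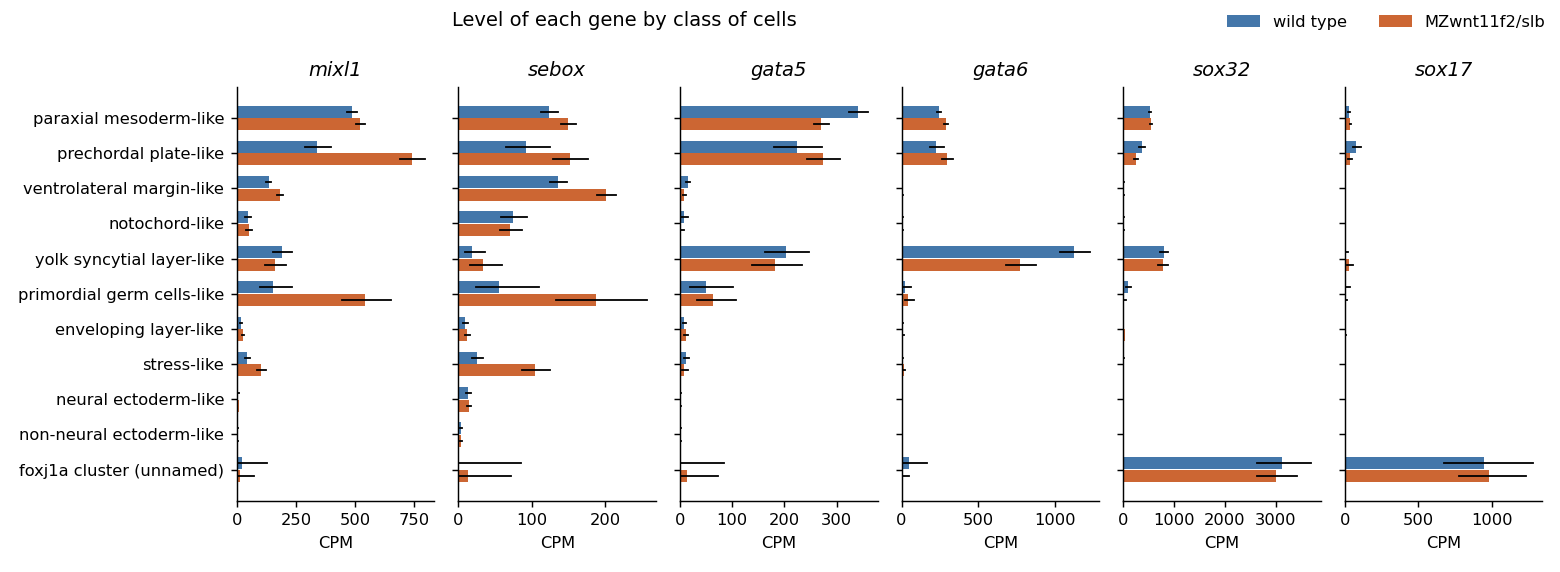
Level of each gene (horizontal axis, CPM within the class, a linear axis with its own range for each gene) by class of cells in wild type (blue) and *MZwnt11f2/slb* (orange); black lines are 95% Poisson intervals. *mixl1* and *sebox* reach the ventrolateral margin-like cells where the other genes are near 0, *gata6* is highest in the yolk syncytial layer-like cells, and *sox32* and *sox17* are highest in the cluster led by *foxj1a*.

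In ventrolateral margin-like cells only the homeobox members were abundant. *sebox* had 136 and 202 CPM and *mixl1* 135 and 183 CPM, in 36.2% and 43.7% and in 29.1% and 34.9% of the cells. *gata5* had 15.6 and 8.43 CPM there, *sox32* 4.88 and 6.48 CPM and *gata6* 3.25 and 5.62 CPM. *sox32* was detected in 1.79% of these cells in wild type (median 3833.5 UMIs) and 2.97% in *MZwnt11f2/slb* (median 4574), against 1.65% and 1.61% of ectoderm-like cells (medians 3897 and 4729), which are not known to express it. *sox17* had 1 UMI in this class in wild type and 0 in *MZwnt11f2/slb*. Notochord-like cells were alike, with 74.5 and 70.7 CPM of *sebox*, 45.9 and 50.8 CPM of *mixl1*, at most 9 UMIs of *gata5*, *gata6* or *sox32*, and no UMI of *sox17*. This class does not include a small unnamed cluster, described below, that was also rich in the notochord markers *noto* and *chrd*. That cluster held 136 and 232 UMIs of *sox32* and 41 and 76 of *sox17*.

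Prechordal plate-like cells, the *gsc*- and *frzb*-expressing cells at the front of the axial mesendoderm, held all 6 genes. The class held 113 wild-type and 213 *MZwnt11f2/slb* cells. *mixl1* had 340 and 741 CPM there, in 74 and 191 cells. *sox32* had 366 and 252 CPM in 24 and 46 cells, and *sox17* 78.2 and 35.6 CPM in 13 and 16 cells. The ratio of *sox17* to *sox32* UMIs was 0.214 (0.143 to 0.311) and 0.141 (0.0978 to 0.199) in this class. The paraxial mesoderm-like cells had 0.0508 (0.0413 to 0.0618) and 0.0708 (0.0614 to 0.0814). In both libraries the interval of the prechordal plate-like class lay above that of the paraxial class. These intervals do not cover the spread of UMIs between cells, and *sox17* was found in only 13 and 16 prechordal plate-like cells. Enveloping layer-like cells had ratios of 0.122 (0.0589 to 0.229) and 0.127 (0.0785 to 0.197), from 11 and 23 *sox17* UMIs.

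Yolk syncytial layer-like cells, which had the homeobox genes *mxtx1* and *mxtx2* and apolipoprotein genes among their markers, had the reverse mixture. *gata6* reached 1127 CPM in 121 of 140 wild-type cells (86.4%) and 775 CPM in 61 of 73 *MZwnt11f2/slb* cells (83.6%), its highest class level. *sox32* followed with 796 and 781 CPM in 72.9% and 68.5% of the cells. *gata5* had 202 and 181 CPM and *mixl1* 189 and 160 CPM. *sox17* was at 4 and 10 UMIs, which gives a *sox17* to *sox32* ratio of 0.0107 (0.0029 to 0.0276) in wild type and 0.0386 (0.0183 to 0.0722) in *MZwnt11f2/slb*. *gata6* exceeded *gata5* by 5.58 times (4.48 to 7.02) and 4.28 times (3.22 to 5.77) there, while in paraxial mesoderm-like cells that ratio was 0.715 (0.657 to 0.778) and 1.07 (0.996 to 1.15). *sox32* is known in zebrafish from the yolk syncytial layer as well as from endoderm. The paraxial marker *msgn1* had 119 and 576 CPM in these cells, the enveloping layer keratin *krt4* 296 and 81.5 CPM, and the part of other cells' RNA in these levels was not tested.

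Primordial germ cell-like cells, 30 in wild type and 32 in *MZwnt11f2/slb*, had 154 and 540 CPM of *mixl1* in 13 and 18 cells and 56.0 and 188 CPM of *sebox* in 8 and 12 cells. *sox32* was found in 2 cells of each library and *sox17* in 1 wild-type cell. Stress-like cells, marked by the p53 targets *phlda3* and *sesn3*, had 44.3 and 104 CPM of *mixl1* and 25.6 and 105 CPM of *sebox*, with *sox32* at 20 UMIs in each library. In ectoderm-like cells each of the 6 genes was at or below 11.4 CPM in both libraries.

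A small unnamed cluster held 10 wild-type and 17 *MZwnt11f2/slb* cells and was led by *foxj1a*, a regulator of motile cilia, with *noto* and *chrd* also among its leading genes. It combined the end of the cascade with little of its beginning. *sox32* stood at 3132 and 3002 CPM and *sox17* at 944 and 984 CPM, the highest levels of these genes in any cluster. Single wild-type cells held 7 to 31 UMIs of *sox32* with a median of 11.5, and single *MZwnt11f2/slb* cells 0 to 35 with a median of 11. *sox17* ranged from 0 to 12 UMIs in wild type (median 4) and from 0 to 10 in *MZwnt11f2/slb* (median 5). Of the 27 cells, 26 had *sox32*, 21 had *sox17*, and every cell with *sox17* also had *sox32*. The other 4 genes together had 6 UMIs, in 4 of the 27 cells. The *sox17* to *sox32* ratio was 0.301 (0.207 to 0.430) and 0.328 (0.249 to 0.426), several times that of the paraxial class. Its interval overlapped that of the prechordal plate-like class in wild type (0.143 to 0.311) and lay above it in *MZwnt11f2/slb* (0.0978 to 0.199). In zebrafish, *foxj1a*, *sox32* and *sox17* are known together from the dorsal forerunner cells. The cluster has fewer than the 50 cells asked for a name here, and *sox32* and *sox17* took no part in forming it. *foxj1a*, *noto*, *chrd* and *tbxta* are also on the notochord marker list used here. *tbxta* was at 1981 and 3041 CPM in the cluster, against 345 and 386 CPM over all cells. Whether the cluster belongs with the notochord-like class was not tested. *krt4* was at 1428 and 1928 CPM in this cluster, and *msgn1* had 0 and 5 UMIs. *cxcr4a*, a chemokine receptor of migrating endoderm cells, had 6 UMIs in each library (138 and 77.7 CPM), in 6 and 2 cells. *foxa2* had 2 UMIs in each library (46.1 and 25.9 CPM) and *foxa3* 5 and 8 UMIs (115 and 104 CPM). Over all cells the levels were 220 and 406 CPM for *cxcr4a*, 7.89 and 12.7 CPM for *foxa2*, and 51.1 and 113 CPM for *foxa3*.

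**Figure D2:**
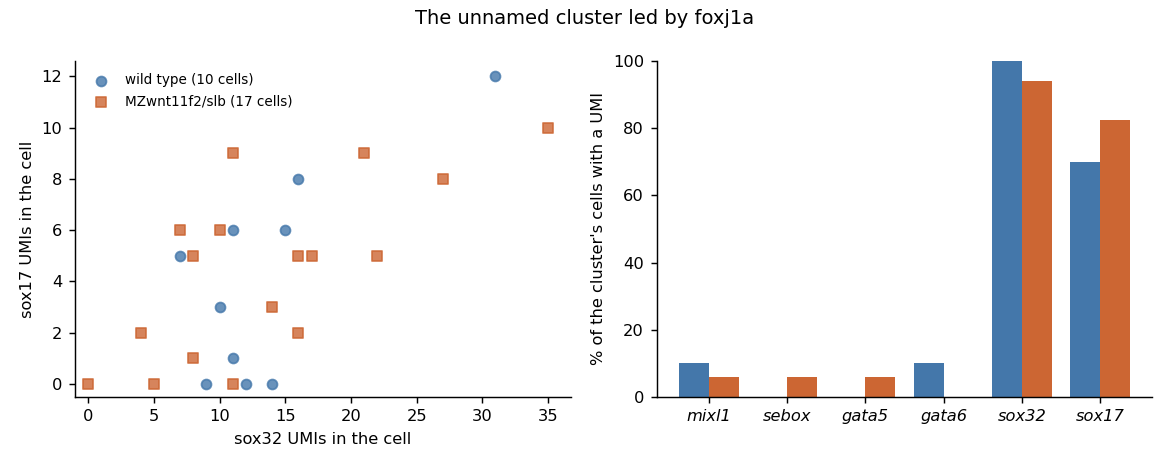
Left, UMIs of *sox17* (vertical axis) against UMIs of *sox32* (horizontal axis) in each of the 27 cells of the unnamed cluster led by *foxj1a*, wild type as blue circles and *MZwnt11f2/slb* as orange squares. Right, percent of the cluster's cells with at least 1 UMI of each gene; *sox32* and *sox17* are in most cells, whereas each of *mixl1*, *sebox*, *gata5* and *gata6* is in at most 1 cell of a library.

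Co-detection within cells was read after each cell was thinned at random to 2944 UMIs, which makes the chance of seeing a gene equal in depth across cells and left 6647 wild-type and 6856 *MZwnt11f2/slb* cells. No member was seen in 5221 (78.5%) and 5010 (73.1%) of these thinned cells. *sox17* was almost nested within *sox32*: 60 of 65 *sox17*-positive wild-type cells also had *sox32*, 92.3% (83.0 to 97.5), and 106 of 116 in *MZwnt11f2/slb*, 91.4% (84.7 to 95.8). Among cells without *sox17*, 4.22% and 5.30% had *sox32*. The reverse share was lower, as *sox17* was seen in 17.8% (13.8 to 22.3) and 22.9% (19.1 to 27.0) of *sox32*-positive cells. *sox17* had far fewer UMIs than *sox32* (200 and 374 against 2954 and 4135, unthinned), so it can be missed in cells that express it. The part of this detection limit in the lower share was not tested. *sox17* was seen in 5 of 6309 and 10 of 6393 cells without *sox32*.

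The upstream genes overlapped with *sox32* to different degrees. In thinned *sox32*-positive cells, *gata6* was seen in 53.0% (wild type) and 58.3% (mutant), *gata5* in 52.7% and 51.8%, and *mixl1* in 50.9% and 48.4%. In cells without *sox32* the shares were 4.04% and 5.76% for *gata6*, 5.56% and 6.07% for *gata5*, and 11.2% and 14.0% for *mixl1*. *sebox* was seen in 9.76% (6.82 to 13.4) of *sox32*-positive cells in wild type, against 8.23% of cells without *sox32*, and in 18.6% (15.1 to 22.4) against 11.2% in *MZwnt11f2/slb*. *sebox* was often found with *mixl1*: 51.8% and 54.7% of *sebox*-positive cells had *mixl1*, against 13.2% and 16.3% of all thinned cells. *gata5* and *gata6* were found together in 46.5% and 56.4% of *gata5*-positive cells, while *gata6* was in 6.53% and 9.31% of all thinned cells. In thinned ectoderm-like cells the share with a UMI was 1.29% and 1.75% for *mixl1*, 1.56% and 2.34% for *sebox*, 1.29% and 1.12% for *sox32*, and below 1% for the other genes. At their own depth, 10 wild-type and 18 *MZwnt11f2/slb* cells had all 6 genes.

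**Figure D3:**
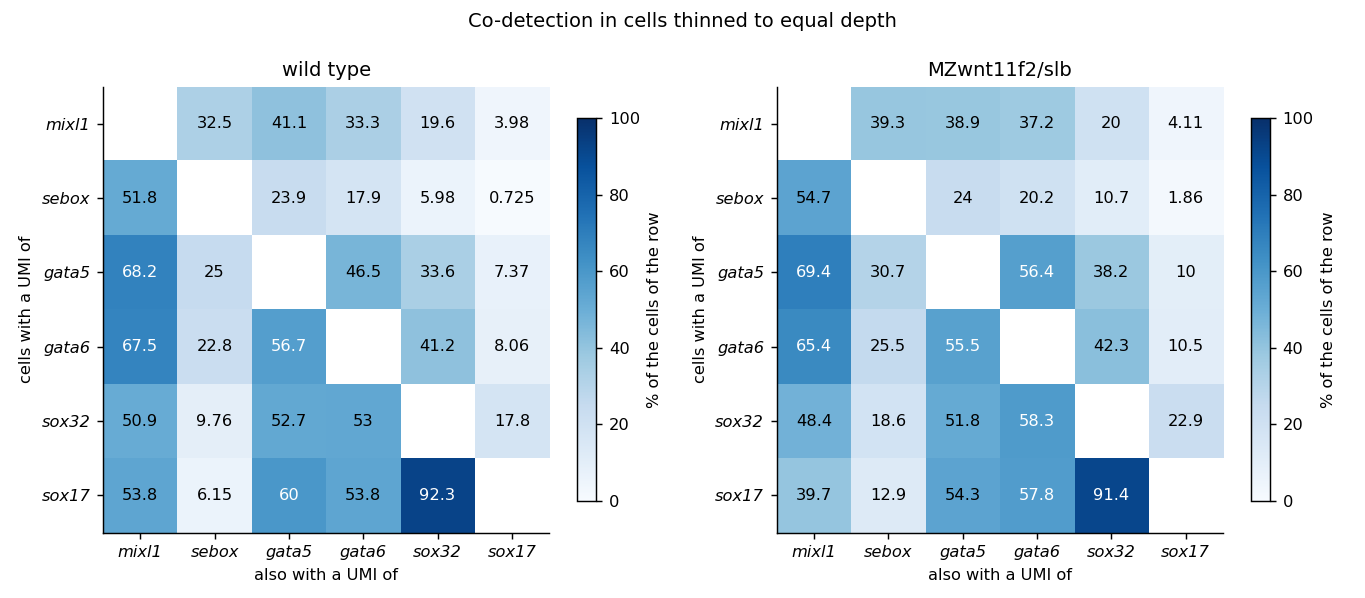
Percent of thinned cells with a UMI of the gene of the row that also had a UMI of the gene of the column, in wild type (left) and *MZwnt11f2/slb* (right); darker blue is a higher percent. The darkest square in both panels is *sox32* in *sox17*-positive cells, 92.3% and 91.4%, and the lightest is *sox17* in *sebox*-positive cells, 0.725% and 1.86%.

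Within the paraxial mesoderm-like class, which holds most of the UMIs of 5 of the genes, *sebox* was less frequent in cells with *sox32* than in cells without it, by more than counting error. After thinning, *sebox* was seen in 26 of 200 *sox32*-positive wild-type cells, 13% (8.67 to 18.5), and in 34.2% of those without *sox32*. The values were 22.9% (18.2 to 28.1) and 34.9% in *MZwnt11f2/slb*. *mixl1* was seen in 68.5% and 56.7% of thinned *sox32*-positive cells, and in 76.5% and 71.3% of cells without *sox32*. The intervals of *mixl1* overlapped in wild type (61.6 to 74.9 against 72.3 to 80.4) and not in *MZwnt11f2/slb* (50.8 to 62.4 against 67.4 to 75). The GATA genes went the other way, with *gata6* in 63.5% and 72.7% of *sox32*-positive cells against 39.1% and 41.6%, and *gata5* in 69.5% and 65.2% against 55.5% and 46.2%. All 38 *sox17*-positive wild-type cells of this class had *sox32*, as did 74 of 77 in *MZwnt11f2/slb*. In thinned *sox17*-positive cells of the class, *mixl1* was seen in 65.8% (48.6 to 80.4) of wild-type and 44.2% (32.8 to 55.9) of *MZwnt11f2/slb* cells.

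All 911 and 997 cells of the class, unthinned, were then ordered by their *sox32* count, as 0, 1, 2 to 3, 4 to 7 and 8 or more UMIs. These bins held 622, 39, 46, 84 and 120 wild-type cells and 618, 46, 53, 101 and 179 *MZwnt11f2/slb* cells. *sox17* was at 0 and 0.00285 UMIs per 10000 in cells without *sox32*, at 0.161 and 0.128 in cells with 2 to 3 UMIs, at 0.595 and 0.856 with 4 to 7, and at 1.42 and 1.58 with 8 or more. Of the *sox17* UMIs in these cells, 100 of 104 in wild type and 207 of 214 in *MZwnt11f2/slb* thus came from cells with at least 4 UMIs of *sox32*, and even in the highest bin only 39.2% and 49.2% of the cells had one. *mixl1* was at 5.26 and 6.04 UMIs per 10000 in cells without *sox32* and at 3.64 and 2.80 in the highest bin. *sebox* went from 1.57 and 1.83 to 0.532 and 0.778 between those bins. In wild type *sebox* was already at 0.553 in cells with a single *sox32* UMI, whereas in *MZwnt11f2/slb* it was at 1.38 there and at 1.54 with 2 to 3 UMIs. *gata5* was higher in the highest bin (4.76 and 4.05) than without *sox32* (2.96 and 2.21). *gata6* went from 1.89 and 2.08 to 3.69 and 4.39, with its highest value in the bin of 4 to 7 UMIs in wild type (4.22) and of 2 to 3 UMIs in *MZwnt11f2/slb* (5.12).

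**Figure D4:**
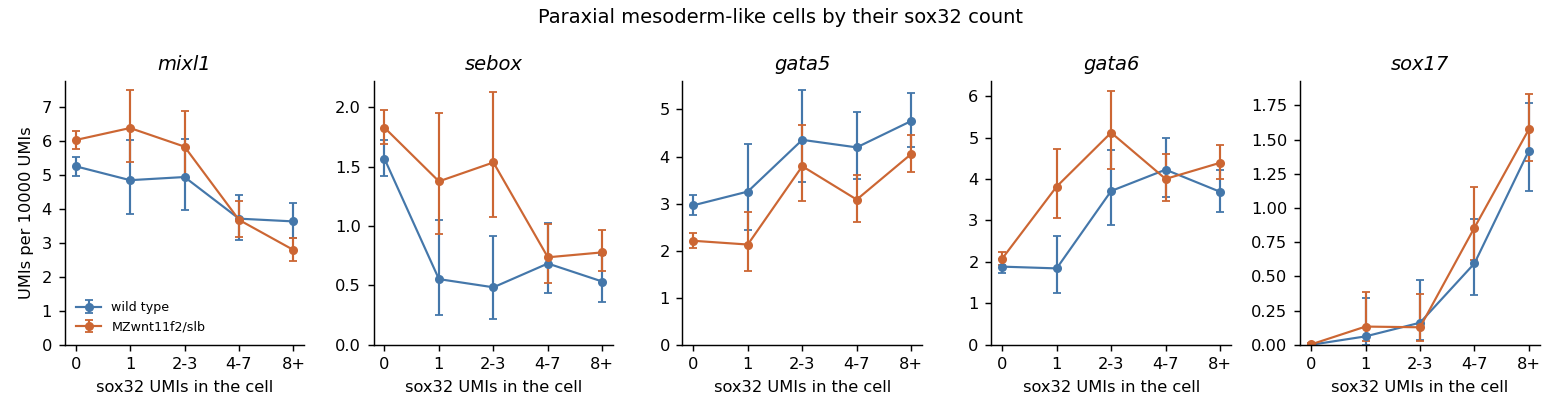
Level of the other 5 genes (vertical axis, UMIs per 10000 UMIs, linear axes starting at 0) in paraxial mesoderm-like cells grouped by their *sox32* UMIs (horizontal axis), wild type in blue and *MZwnt11f2/slb* in orange, with 95% Poisson intervals (none drawn at a count of 0). *sox17* stays near 0 below 4 *sox32* UMIs and reaches 1.42 and 1.58 with 8 or more; *mixl1* and *sebox* are lower, and *gata5* and *gata6* higher, with 8 or more than with 0.

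Levels of endoderm and mesoderm genes outside the cascade were read along *sox32* too. *cxcr4a* was at 59.9 and 131 CPM in paraxial mesoderm-like cells without *sox32*, and at 985 and 1010 CPM in those with 8 or more UMIs. *foxa2*, a forkhead factor of endoderm and axial mesoderm, went from 15.7 and 22.5 to 42.6 and 58.6 CPM, though its wild-type maximum of 56.5 CPM lay in the bin of 4 to 7 UMIs, and *prdx5* from 3.46 and 2.57 to 17.7 and 30.7 CPM. *her5* went from 25.7 and 28.2 to 69.2 and 58.6 CPM. These 4, of 7 endoderm genes found in at least 50 cells of a library, were higher in the highest than in the lowest bin in both libraries, with intervals that left out 0. No fold was asked for in this count or in those of the other lists below. The share of all genes that would pass the same rule was not counted, so the counts only describe the lists. *foxa3* was not higher, with 178 and 305 CPM in the lowest and 165 and 256 CPM in the highest bin. Its log2 ratio was −0.11 (−0.45 to 0.21) in wild type and −0.25 (−0.45 to −0.06), thus lower, in *MZwnt11f2/slb*. *hnf1ba* went from 1 and 8 UMIs in the lowest bin to 0 in the highest in both libraries. *hnf4a* went from 6 and 4 UMIs to 3 and 0. Of 9 mesoderm genes, 6 were lower at high *sox32* in both libraries (*msgn1*, *tbxta*, *mespab*, *mespaa*, *cdx4* and *tbx16*), and none was higher in both. *msgn1* went from 2346 and 2190 to 1150 and 1154 CPM, *tbxta* from 909 and 852 to 316 and 224 CPM, and *mespab* from 494 and 389 to 199 and 119 CPM. Of the 6, *tbx16* differed least, with a log2 ratio of −0.32 (−0.39 to −0.25) and −0.27 (−0.33 to −0.20), and *eve1* had intervals that held 0 (0.28, −0.05 to 0.61, and 0.17, −0.12 to 0.46). Of 16 Nodal pathway genes, 2 were higher and 3 lower in both. The feedback inhibitor *lft2* went from 71.4 and 56.7 to 342 and 233 CPM and the co-receptor gene *tdgf1* from 615 and 640 to 995 and 842 CPM, while the Nodal ligand gene *ndr2* went from 64.9 and 66.7 to 33.7 and 23.1 CPM. The other feedback inhibitor, *lft1*, was lower, from 249 to 40.8 CPM in wild type and from 25 to 0 UMIs in *MZwnt11f2/slb*. *pou5f3* was lower too, from 1280 and 1420 to 1116 and 1267 CPM. *krt4*, a marker of the enveloping layer, also went from 116 and 121 to 224 and 395 CPM, and its part in these values was not tested.

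The genotype comparison asked whether the cascade stood at another level when *wnt11f2* function was lost. Over all cells, the log2 ratio of *MZwnt11f2/slb* to wild type was 0.66 (0.60 to 0.73) for *mixl1*, 0.70 (0.60 to 0.79) for *sebox*, 0.15 (0.06 to 0.25) for *gata5*, 0.39 (0.29 to 0.48) for *gata6*, 0.39 (0.32 to 0.45) for *sox32* and 0.80 (0.55 to 1.06) for *sox17*. Of the 6 genes, 3 (*mixl1*, *sebox* and *sox17*) were higher by at least 1.5-fold and none was lower. In thinned cells *gata6* (0.59) and *sox32* (0.61) passed this fold too, making 5 of 6, where 11.8% of 10070 genes were higher. Thinning also dropped every cell too shallow for it, 2215 wild-type but 1055 mutant cells. The yolk syncytial layer-like class, rich in *gata6* and *sox32*, kept 63 of its 140 wild-type cells and 56 of its 73 mutant cells. The part of this unequal loss in the 5 of 6 was not tested. Among all 11756 genes with at least 100 UMIs over both libraries, 12.7% were higher and 20.6% lower by at least 1.5-fold. Their median log2 ratio was −0.09, against 0.52 over the 6 genes. In the meso-endoderm-like cells, which were 27.1% of the wild-type cells and 32% of the mutant cells, none of the 6 passed 1.5-fold, where 12.1% of 8296 genes were higher and 15.7% lower. With shallow and mitochondria-rich cells left out, *gata6* passed it (0.69) and 12.6% of 7722 genes were higher. In all meso-endoderm-like cells, without this filter, the ratios were 0.40 (0.33 to 0.47) for *mixl1*, 0.38 (0.28 to 0.49) for *sebox* and −0.10 (−0.20 to 0.00) for *gata5*. They were 0.49 (0.38 to 0.60) for *gata6*, 0.18 (0.10 to 0.26) for *sox32* and 0.47 (0.16 to 0.78) for *sox17*.

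The ratios depended on the class. In prechordal plate-like cells *mixl1* was higher in *MZwnt11f2/slb*, at 1.12 (0.87 to 1.39), as were *sebox* at 0.72 (0.22 to 1.26) and *gata6* at 0.39 (0.06 to 0.73), whereas *sox32* was lower at −0.54 (−0.82 to −0.24) and *sox17* at −1.13 (−1.84 to −0.42). *gata5* there had an interval that held 0 (0.29, −0.04 to 0.64). Of the 113 and 213 cells of this class, *sox32* was found in 24 and 46 and *sox17* in 13 and 16. The intervals do not cover the spread of UMIs between such cells. In paraxial mesoderm-like cells *sox17* was higher, at 0.53 (0.18 to 0.88), *sebox* at 0.27 (0.11 to 0.44), *gata6* at 0.25 (0.13 to 0.36) and *mixl1* at 0.10 (0.02 to 0.19), while *gata5* was lower at −0.34 (−0.44 to −0.23) and *sox32* lay at 0.04 (−0.04 to 0.13). The clusters of that class differed: in cluster 0 (811 and 819 cells) *sox32* was at 0.30 (0.21 to 0.39), and in the high-UMI cluster 21 (100 and 178 cells) at −0.51 (−0.74 to −0.28). In the same order of clusters, *sox17* was at 0.78 and −0.07, *mixl1* at 0.30 and −0.15 and *sebox* at 0.49 and −0.12. *gata6* was at 0.40 and 0.21 and *gata5* at −0.13 and −0.60. In cluster 21 the intervals of *sox17*, *mixl1*, *sebox* and *gata6* held 0. In ventrolateral margin-like cells *sebox* was at 0.57 (0.42 to 0.72), *mixl1* at 0.44 (0.29 to 0.60) and *gata5* at −0.88 (−1.49 to −0.29).

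**Figure D5:**
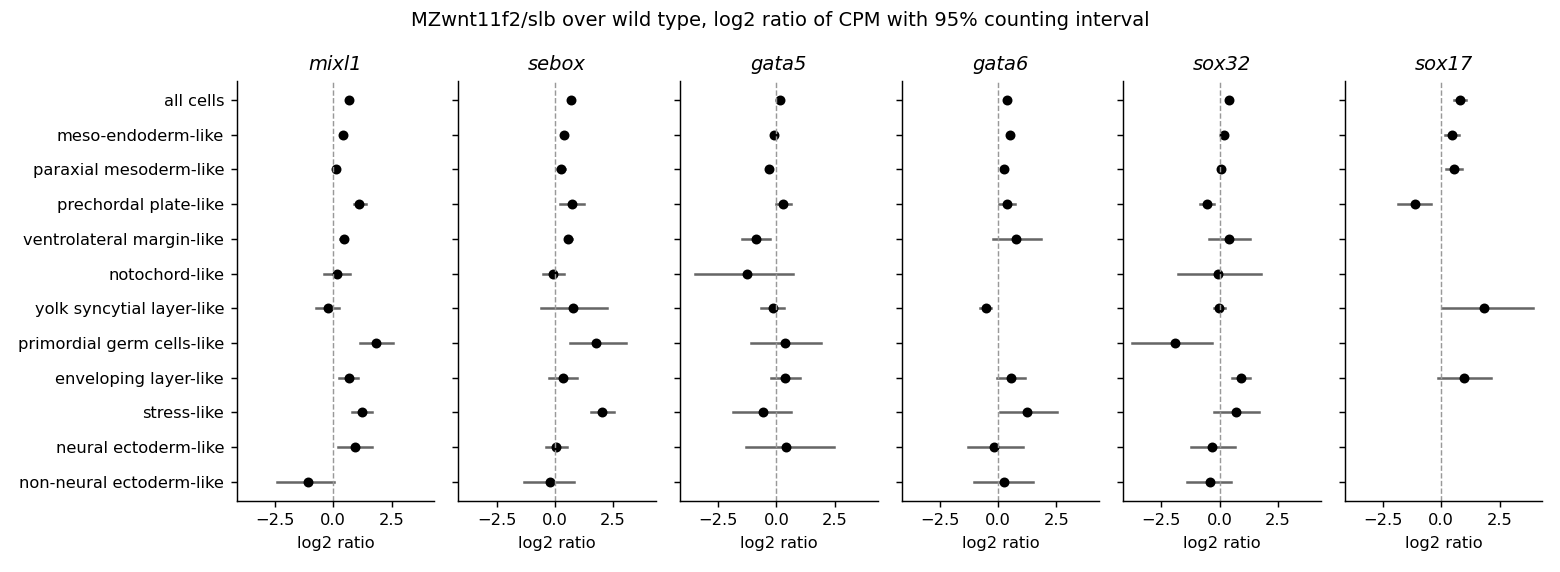
Log2 ratio of the level in *MZwnt11f2/slb* to that in wild type (horizontal axis; the dashed line marks 0) for each gene in all cells, in meso-endoderm-like cells and by class; points are ratios and lines 95% counting intervals, and classes with 3 or fewer UMIs in a library are left out. *mixl1* and *sebox* lie right of 0 in most classes, while *sox32* and *sox17* lie left of it in prechordal plate-like cells.

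In yolk syncytial layer-like cells *gata6* was lower, at −0.54 (−0.76 to −0.32), and *sox32* at −0.03 (−0.26 to 0.21). The class itself differed between the libraries, with median UMIs of 2621.5 in wild type and 4743 in *MZwnt11f2/slb*. Its marker *apoa1b* was at 349 and 51.3 CPM, its marker *mxtx2* at 42.5 and 51.3 CPM, and *msgn1* at 119 and 576 CPM. The part of these differences in the ratios was not tested. The *foxj1a* cluster gave −0.06 (−0.37 to 0.26) for *sox32* and 0.06 (−0.51 to 0.64) for *sox17*, and both intervals held 0. In stress-like cells *sebox* was at 2.04 (1.55 to 2.55) and *mixl1* at 1.23 (0.82 to 1.65), and in primordial germ cell-like cells *mixl1* was at 1.81 (1.14 to 2.54). The last ratio rested on 22 UMIs in 13 wild-type cells and 112 UMIs in 18 mutant cells. The primordial germ cell-like class had median UMIs of 3877 and 6212.5, and its marker *nanos3* was at 5172 and 13993 CPM. What these differences add to the ratio was not tested. In enveloping layer-like cells, which different clusters held in the libraries, *sox32* was at 0.90 (0.53 to 1.28). There, 143 of its 181 *MZwnt11f2/slb* UMIs and 45 of its 90 wild-type UMIs came from the high-UMI cluster 20.

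Other genes of the pathway were taken as lists, to be read beside the shares of all genes given above (12.7% higher and 20.6% lower over all cells). Of the Nodal pathway list (19 genes, 16 detected in at least 50 cells of a library), 3 of 16 tested over all cells were higher by at least 1.5-fold and 2 lower, with a median log2 ratio of 0.15. The higher ones were *ndr2* (0.81, 0.65 to 0.96), the feedback inhibitor *lft2* (0.60, 0.48 to 0.73) and the Nodal effector *smad3a* (2.41, 2.14 to 2.69). The lower ones were *gdf3* (−0.92, −0.98 to −0.86), the maternal partner of the Nodal ligands, and *lft1* with 1238 and 39 UMIs. In the meso-endoderm-like cells 1 of 15 was higher (*smad3a*, 2.79) and 2 were lower (*gdf3*, −0.89, and *lft1*, −5.35), with a median of 0.10. Of 7 endoderm genes tested over all cells, 3 were higher, *foxa3* (1.15), *cxcr4a* (0.88) and *foxa2* (0.69), and 2 were lower, *hnf4a* (−1.31) and *hnf1ba* (−1.10), with a median of −0.05. Of the UMIs of *hnf4a*, 81.6% and 66.9% lay in yolk syncytial layer-like cells, as did 89.5% and 43.5% of those of *hnf1ba*, and that class was 1.58% of wild-type and 0.923% of mutant cells. In the meso-endoderm-like cells, where both were too low to be tested, *hnf4a* had 21 and 20 UMIs and *hnf1ba* 3 and 18. Of the *foxa2* UMIs, 137 of 295 and 233 of 508 lay in prechordal plate-like cells, 1.28% of wild-type and 2.69% of mutant cells. Within that class *foxa2* was at 315 and 218 CPM, *foxa3* at 1189 and 1513 CPM and *cxcr4a* at 108 and 169 CPM. The part of class size in the ratios was not tested. In the meso-endoderm-like cells 2 of 5 were higher, *foxa3* (0.96) and *cxcr4a* (0.65), none was lower and the median was 0.36. Of 9 mesoderm genes, 2 were higher over all cells, *gsc* (1.30) and *noto* (0.69), and 1 lower, *mespaa* (−1.88), with a median of −0.12. Prechordal plate-like cells held 405 of 601 and 1186 of 1581 *gsc* UMIs, and *gsc* was at 931 and 1111 CPM within them. In the meso-endoderm-like cells 1 of 9 was higher, *gsc* (1.05), and 3 were lower, *mespaa* (−2.17), *cdx4* (−0.63) and *tbx16* (−0.61), with a median of −0.37.

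The genes most like each member over single cells were named by Pearson's r of log-normalized values over the 8862 wild-type cells, with the r over the 7911 *MZwnt11f2/slb* cells beside it. Such r values are descriptions, because cells of a library share its depth and preparation and 10747 genes were compared. *mixl1* was most like *msgn1* (0.64 and 0.63), *aplnrb* (0.58 and 0.64), *pcdh8* (0.56 and 0.63), *mespab* (0.56 and 0.54) and *fscn1a* (0.55 and 0.61). *sebox* was most like *tbxta* (0.49 and 0.55), followed by *wnt11f2* (0.36 and 0.32), *mixl1* (0.36 and 0.47), *mespab* (0.35 and 0.36) and *hes6* (0.35 and 0.37). *gata5* was most like *msgn1* (0.59 and 0.58), *efnb2a* (0.56 and 0.61), *snai1a* (0.53 and 0.54), *rnd1b* (0.53 and 0.59) and *ism1* (0.52 and 0.60). The closest genes of *gata6* in wild type were *slc7a8a* (0.58 and 0.40), *ctsll* (0.57 and 0.32), *afp4* (0.57 and 0.32), *nr0b2a* (0.55 and 0.32) and *mttp* (0.55 and 0.28). Of these, *ctsll* and *afp4* were leading genes of the yolk syncytial layer-like cluster and *mttp* one of its markers. None of these 5 was among the 5 closest in *MZwnt11f2/slb*, where that cluster held 73 cells in place of 140, nor within the wild-type meso-endoderm-like cells, and 1 of them was in thinned cells. The r of *gata6* with *gata5* was 0.49 and 0.59, in *MZwnt11f2/slb* above its r with each of those 5.

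Over all cells, *sox32* and *sox17* were closest to members of the cascade itself. *sox32* was most like *gata6* (0.52 and 0.52), *sox17* (0.47 and 0.57), *ism1* (0.45 and 0.43), *s1pr5a* (0.44 and 0.46) and *gata5* (0.43 and 0.48). Yolk syncytial layer-like cells held 31.5% and 10.9% of the *gata6* UMIs and 12.7% and 6.26% of the *sox32* UMIs. Their part in the r of these 2 genes was not tested. Within the wild-type meso-endoderm-like cells, 2 of the 5 genes closest to *sox32*, and 2 of the 5 closest to *sox17*, stayed among the 5 closest. For *sox17* the closest gene in both libraries was *sox32*, at 0.47 and 0.57, far ahead of *elovl6* (0.21 and 0.22), *flrt3* (0.21 and 0.28), *ism1* (0.21 and 0.20) and *id3* (0.21 and 0.22). Between *sebox* and the end of the cascade the relation was near 0, with r = 0.01 and 0.03 for *sebox* with *sox32* and −0.02 and −0.01 for *sebox* with *sox17*. For *mixl1*, the other early homeobox member, r was 0.24 and 0.21 with *sox32* and 0.095 and 0.062 with *sox17*.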

How the data were processed

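The authors dissociated and fixed shield-stage embryos with acetic acid and methanol (ACME), sorted DAPI-stained cells and made 10x Chromium 3′ libraries. The deposited values are raw UMI counts per gene and cell, without normalization. Per the file headers and the submitters' processing notes, reads were processed with Cell Ranger 6.1.1 on GRCz11, while the methods name another version; the sources used here do not say whether intronic reads were counted. Gene names are those of the deposited list.

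All deposited barcodes were kept. For clustering, size-factor-normalized counts were transformed as log10(x + 1) and scaled, leaving out 20 genes (the 6 members, *wnt11f2* and 13 Nodal or patterning genes). The first 30 principal components were regressed on log10 UMIs and sample, and cells were clustered on 20 nearest neighbours by the Leiden algorithm (resolution 2). A name needed 3 markers with at least 10 UMIs and 1.5-fold enrichment, a top 10 by fold (of genes having 50 UMIs or more) that held no more markers of another class, and at least 50 cells. These thresholds were set after the clusters were seen. The members, gene lists and markers were chosen with earlier results of these data known.

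UMIs were summed per class and library. No test was made and no replicates could be compared, each genotype having 1 library. A floor of 3 counts was used, below which no ratio is given. Named genes were the members, the list genes found in at least 50 cells of a library, and the 5 genes most like each member; *krt4* and the genes given for the *foxj1a* cluster were chosen after their values were seen. The interval code and the likeness ranking were tested on simulated data. Alternatives were other scalings, cell filters, clusterings, depths and seeds. Python 3.11.15, numpy 2.4.6, scipy 1.17.1, scikit-learn 1.9.0, igraph 0.11.9 and leidenalg 0.10.2 were used.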

Additional observations from a re-analysis of the deposited data

Results flagged for a closer look

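Ratios of *MZwnt11f2/slb* to wild type were of opposite sign in different classes for 3 genes, with each interval on its own side of 0. The differences between classes were not tested, since each genotype had 1 library, and the intervals do not cover the spread of UMIs between cells. *gata6* had a log2 ratio of −0.54 in yolk syncytial layer-like cells, and of 0.39 in prechordal plate-like, 0.25 in paraxial mesoderm-like and 1.26 in stress-like cells, the last from 11 and 16 UMIs. The yolk syncytial layer-like cells of the libraries also differed in depth and in *apoa1b* and *msgn1*, as given above. *sox32* was at −0.54 in prechordal plate-like cells and at −1.92 in primordial germ cell-like cells (13 and 5 UMIs, in 2 cells of each library), and at 0.90 in enveloping layer-like cells. *sox17* was at −1.13 in prechordal plate-like cells, at 0.53 in paraxial mesoderm-like cells and at 1.83 in yolk syncytial layer-like cells, the last from 4 and 10 UMIs.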

How the results depend on the processing

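No paired analysis was possible because each genotype had 1 library, and no library could be left out. The direction of all 6 ratios over all cells, and of 5 of 6 in the meso-endoderm-like cells, was the same under every alternative run; *gata5* in the meso-endoderm-like cells, whose interval held 0, changed sign. Of 42 alternative ratios over all cells 33 moved by less than counting error, as did 47 of 54 in the meso-endoderm-like cells and 65 of 108 shares. Thinning, which dropped 2215 wild-type but 1055 mutant cells, raised the members higher by at least 1.5-fold over all cells from 3 to 5. The filtered cells raised the members higher by that fold in the meso-endoderm-like cells from 0 to 1. The genes most like each member moved more, in 7 of 12 alternatives: of 5 genes, *gata6* shared 1 in thinned and 0 in meso-endoderm-like cells, and the other members 3 or 4 and 2 to 4. Over all cells, median-of-ratios scaling gave 0.75 for *mixl1* and 0.47 for *sox32*. Keeping cells of 1000 UMIs or more whose mitochondrial share was 10% or less (7570 and 6310) gave 0.74 for *mixl1*, 0.51 for *gata6* and 0.48 for *sox32*. Thinned cells gave 0.29 for *gata5*, 0.59 for *gata6* and 0.61 for *sox32*, and a mean over cells of normalized counts gave 0.21 for *gata6*. In the meso-endoderm-like cells, the filtered cells gave 0.51 for *mixl1*, 0.061 for *gata5*, 0.69 for *gata6* and 0.40 for *sox32*. Clustering without centring by sample gave −0.20 for *gata5*, 0.35 for *gata6* and 0.059 for *sox32*. The cause of these moves was not tested.

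Shares of co-detection moved with depth and with the cells taken. In *sox32*-positive cells at least 2 UMIs of both genes gave, in wild type, 28% for *mixl1*, 1.33% for *sebox*, 28% for *gata5*, 34.2% for *gata6* and 10.7% for *sox17*, and in *MZwnt11f2/slb* 25.2%, 3.42%, 33.5%, 37.9% and 14.6% in that order. With *sox17* as the given gene, *sox32* was then in 100% and 95.9%. Thinning to 0.5 times the UMIs gave 31.6%, 5.57%, 36.7%, 41.3% and 12.7% in wild type and 31.6%, 8.97%, 35.0%, 44.8% and 17.9% in *MZwnt11f2/slb*, in the same order of genes. At their own depth, *sebox* was in 13.6% and 25.4% of *sox32*-positive cells, and in *MZwnt11f2/slb* *mixl1* was in 57.9%, *gata5* in 58.6% and *gata6* in 63.7%. The meso-endoderm-like cells alone gave 64.9% and 56.4% for *mixl1*, 65.8% and 62.7% for *gata5* and 60.1% and 68.1% for *gata6*, with *sox32* in 97.9% of *sox17*-positive wild-type cells. The paraxial mesoderm-like cells alone, an alternative chosen after seeing the data, gave 68.5% and 56.7% for *mixl1*, 69.5% and 65.2% for *gata5*, 63.5% and 72.7% for *gata6* and 22.9% for *sebox* in *MZwnt11f2/slb*, with *sox32* in 100% and 96.1% of *sox17*-positive cells. Over all alternatives *sox32* was in at least 87.7% and 87.0% of *sox17*-positive cells. Leaving out the *foxj1a* cluster, also chosen after seeing the data, moved none of these by more than counting error. The 27 cells of that cluster formed a cluster by themselves in 16 of 18 clusterings, and at least 23 of them stayed together in the others.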
